A study of Mus musculus with 18 samples.

Results

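Glutamate receptor subunits, glutamate transporters and the scaffold proteins that hold receptors at synapses were followed through 37 gene symbols, chosen by name and by class. Of these, 36 were among the 15410 symbols of the colon and dorsal horn count tables, and Grm4 is not analysed here. They comprise 4 AMPA, 5 kainate and 7 NMDA receptor genes, the delta receptor Grid1, 5 metabotropic receptors, 3 vesicular transporters, the uptake transporter Slc1a1, 7 postsynaptic scaffolds, the AMPA receptor partners Cacng2 and Cnih2, and the presynaptic scaffold Bsn. RNA was sequenced in bulk from mice labelled WT, from the colon and from the dorsal horn, the sensory side of the spinal cord. The study concerned bone cancer pain. The nivolumab group had cancer and was given nivolumab, which blocks PD-1 and was made for the human protein. The cancer group had cancer and was given IgG, and the sham group was the sham control, also given IgG. Each group had 3 libraries per tissue. The labels do not name the strain, age, sex or tumour cells, nor say whether each library came from its own animal. The p-values therefore reflect the spread among these libraries alone, part of which could be technical.

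Glutamate is the main excitatory transmitter of the dorsal horn, where sensory fibres release it onto spinal neurons. AMPA receptors carry the fast current, NMDA receptors admit calcium once the cell is depolarised and are needed for lasting increases in pain transmission, and kainate receptors act on both sides of the synapse. Metabotropic receptors signal through G proteins, while Dlg4, Shank and Homer proteins link the receptor types in the postsynaptic density.

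The dorsal horn libraries carried their tissue's markers and also differed in RNA of neighbouring tissue. Pan-neuronal markers (18 genes) had mean levels of 9.28 to 9.42 log2 CPM (counts scaled to library size) in nivolumab libraries, 9.20 to 9.24 in cancer libraries and 9.21 to 9.32 in sham libraries, and colon epithelium markers lay between −2.03 and −0.24. The summed level of 6 genes specific to dorsal root ganglion neurons was 878, 544 and 1034 CPM in nivolumab 1 to 3, 2.83, 3.04 and 293 CPM in cancer 1 to 3, and 3.41, 3.00 and 262 CPM in sham 1 to 3. All 3 nivolumab libraries therefore stood above cancer 3 and sham 3, and the other 4 were near 0. In the colon libraries, 9 epithelial markers averaged 9.32 to 10.28 log2 CPM. Total counts ran from 21855085 to 29071908 in the dorsal horn and from 20896854 to 30803957 in the colon. In bulk tissue, fewer cells of a type and less RNA per cell cannot be told apart.

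Per unit of length (RPKM, the CPM divided by the exon length in kilobases, averaged over all 9 dorsal horn libraries), Grin1, the NMDA subunit that every NMDA receptor needs, had the highest level of the 36 genes at 42.3 RPKM. It was followed by Slc17a6, the vesicular transporter VGLUT2 of spinal excitatory neurons, at 35.9, the AMPA subunit Gria4 at 32.0, the scaffold Dlg4 (PSD-95) at 27.2 and Gria1 at 25.1. The ranges over libraries of these neighbours overlapped, from 32.6 to 50.6 RPKM for Grin1, from 31.9 to 40.6 for Slc17a6 and from 26.7 to 36.9 for Gria4. The order also depended on the length used. With the longest transcript in place of all exons, Dlg4 lay above Slc17a6 and Gria4 in the means of every group. Grik5 led the kainate subunits at 17.8 RPKM, and the presynaptic autoreceptor Grm2 had the lowest level of all members at 0.644 RPKM. These ranks did not hold in every group. Slc17a8 was below Grm2 in cancer (0.534 against 0.726 RPKM) and in sham (0.431 against 0.571). Grik1 exceeded Grik5 in nivolumab 1 (36.9% against 34.5% of the kainate sum) and in nivolumab 3 (37.3% against 33.8%).

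Promoter sequences are shown for the 4 members with the lowest adjusted p in nivolumab against cancer that had an entry in the RefSeq promoter table of GRCm38.p6, to show the starts of genes that the results below turn on. Each window covers 250 bases before to 50 bases after the RefSeq start, read along the gene. Grin2d lies at chr7:45866632-45866931 on the minus strand, Grik3 at chr4:125490446-125490745 on the plus strand, Grin1 at chr2:25319138-25319437 on the minus strand, and Homer2 at chr7:81706876-81707175 on the minus strand. Capitals mark matches, on either strand, to GGGCGG, the GC box, or to CACGTG, an E-box.
Grin2d: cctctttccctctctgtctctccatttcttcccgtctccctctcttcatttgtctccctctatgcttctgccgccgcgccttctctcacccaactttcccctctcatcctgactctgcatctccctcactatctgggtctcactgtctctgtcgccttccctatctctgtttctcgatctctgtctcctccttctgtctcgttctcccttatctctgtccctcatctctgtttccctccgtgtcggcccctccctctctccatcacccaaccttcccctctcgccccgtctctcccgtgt
Grik3: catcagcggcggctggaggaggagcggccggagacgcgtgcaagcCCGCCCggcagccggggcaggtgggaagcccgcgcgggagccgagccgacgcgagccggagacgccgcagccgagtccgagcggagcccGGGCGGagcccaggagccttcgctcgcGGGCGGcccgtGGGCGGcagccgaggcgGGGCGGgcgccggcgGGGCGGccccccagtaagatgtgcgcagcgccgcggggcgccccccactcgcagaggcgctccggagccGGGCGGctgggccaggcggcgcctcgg
Grin1: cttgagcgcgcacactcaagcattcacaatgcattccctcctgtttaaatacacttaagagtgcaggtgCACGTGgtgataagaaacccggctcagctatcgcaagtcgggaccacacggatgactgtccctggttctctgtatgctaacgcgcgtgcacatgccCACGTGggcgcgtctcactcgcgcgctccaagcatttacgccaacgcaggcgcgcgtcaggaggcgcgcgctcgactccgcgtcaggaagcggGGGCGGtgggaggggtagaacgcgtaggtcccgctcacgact
Homer2: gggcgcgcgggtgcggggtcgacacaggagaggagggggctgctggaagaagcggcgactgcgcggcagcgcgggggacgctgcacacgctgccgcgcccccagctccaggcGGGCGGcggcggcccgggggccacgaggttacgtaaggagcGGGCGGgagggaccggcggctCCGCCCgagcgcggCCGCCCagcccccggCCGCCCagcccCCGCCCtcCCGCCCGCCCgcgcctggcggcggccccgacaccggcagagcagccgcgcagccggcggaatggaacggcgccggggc
The GC box occurred 7 times in the Grik3 window, 8 times in that of Homer2, where 1 pair of matches overlaps, 1 time in Grin1 and 0 times in Grin2d, and CACGTG occurred 2 times, in Grin1. A further Homer2 window had no match to either motif. In the GENCODE annotation of GRCm38, Grin2d spans chr7:45831883-45878378 and Homer2 chr7:81600481-81707527. The printed windows of both lie inside these spans, so they need not be the outermost starts. Over the 26 members with entries, 18 of 35 windows (51.4%) held GGGCGG, against 35.7% of all 32851 windows. For CACGTG the values were 1 of 35 windows and 7.15% of all windows, and for TGACGTCA, the cAMP response element, 0 of 35 and 1.79%.

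Summed levels of the NMDA and AMPA classes were lower in every nivolumab dorsal horn library than in any cancer library, while metabotropic sums overlapped. These sums are descriptions with no test. Summed over its 7 genes, the NMDA class had 53.8, 58.9 and 52.5 RPKM in nivolumab libraries, 76.6, 79.3 and 81.8 in cancer libraries and 69.1, 73.6 and 75.5 in sham libraries. The AMPA class had 73.3, 79.1 and 68.5 RPKM in nivolumab, 92.3, 96.2 and 85.1 in cancer and 85.6, 89.8 and 89.4 in sham libraries. In both classes every nivolumab library lay below every library of the other groups. The kainate class had 49.3, 42.0 and 49.1 RPKM in nivolumab libraries, 40.1, 40.5 and 40.9 in cancer and 34.0, 35.7 and 41.0 in sham libraries. For the kainate class every nivolumab library was the higher one, and Grik1 alone made up 36.9%, 23.3% and 37.3% of it there, against 6.70%, 9.10% and 16.0% in cancer libraries. With Grik1 left out, the kainate sum was lower in every nivolumab library than in any cancer library, and it overlapped with sham. The metabotropic sum had overlapping groups, with 23.5 ± 2.43 RPKM in nivolumab, 24.1 ± 4.25 in cancer and 25.2 ± 4.28 in sham (SD, n = 3).

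**Figure D1:**
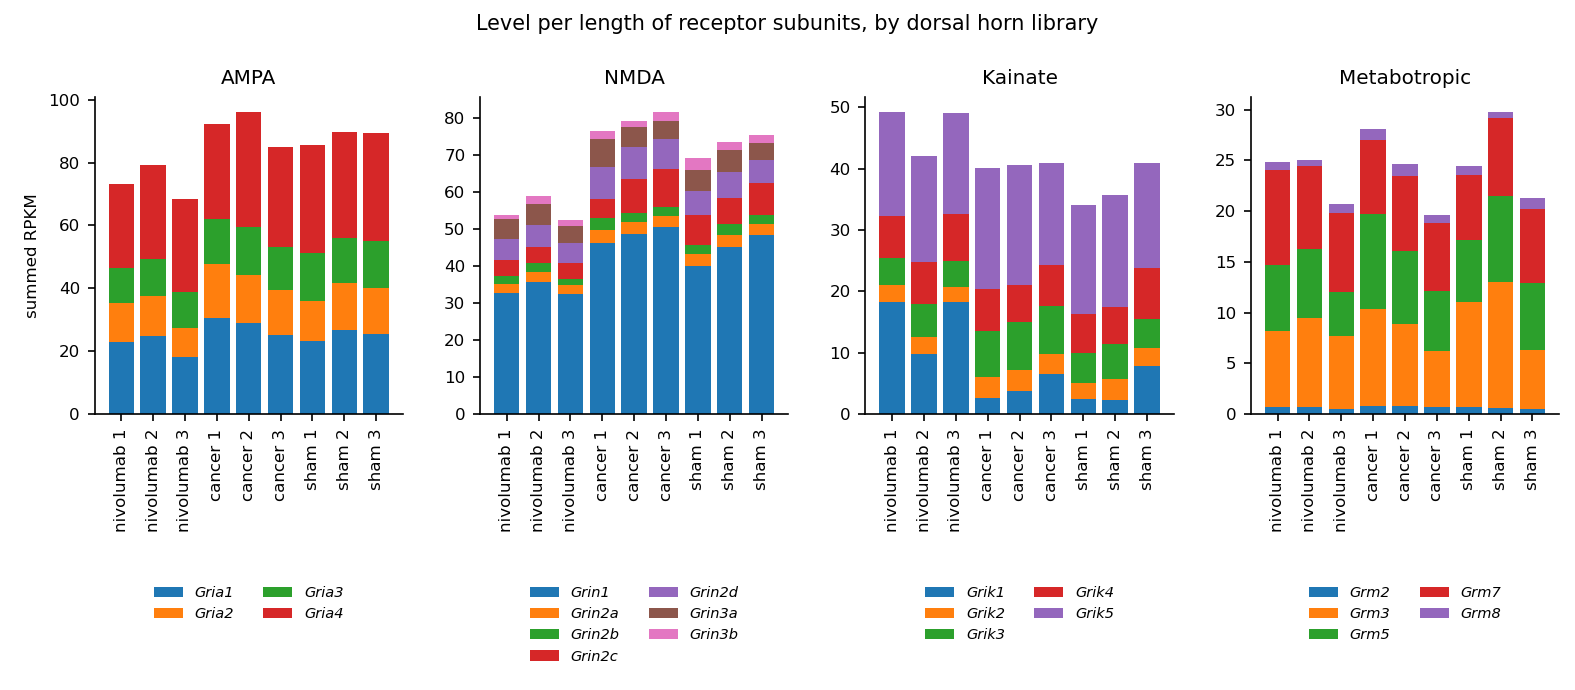
Summed level per length (RPKM) of AMPA, NMDA, kainate and metabotropic receptor genes in each of the 9 dorsal horn libraries, stacked by subunit. The NMDA bars of the nivolumab libraries reach 52.5 to 58.9 RPKM, all below the cancer and sham bars, while the Grik1 segment of the kainate bars is tallest in nivolumab libraries.

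Nivolumab was first set against cancer in the dorsal horn. The gene test was the quasi-likelihood test of edgeR, with p-values adjusted by Benjamini and Hochberg over 13609 genes and a threshold of 0.05. Of the 36 members, 12 fell and 2 rose, while 17.2% of all genes tested passed (8.63% higher and 8.6% lower). The members' log2 fold changes had a median of −0.24, against 0 for all genes, and 27 of 36 were negative, against 50% of all genes. With the ganglion marker level as a covariate the median was −0.14, with 23 of 36 negative. With scaling to neuronal markers it was −0.36, with 30 of 36 negative, and the median of all genes was then −0.12. Pan-neuronal markers are not confined to spinal neurons. Their own level was higher in nivolumab libraries (9.28 to 9.42 log2 CPM) than in cancer libraries (9.20 to 9.24). How far ganglion RNA entered this scaling was not tested. By class, 4 of 7 NMDA, 2 of 4 AMPA, 1 of 5 kainate and 0 of 5 metabotropic genes fell, and none of these 21 receptors rose. Groups did not overlap for 16 lower and 5 higher members, against 19.5% and 20.6% of all genes. Across 19 alternative settings, 8 members passed in all (Grin1, Grin2d, Grik3, Grid1, Gria3, Cacng2, Shank1 and Homer2), and the signs of all 14 held. The count was 8 without cancer 2, 8 without nivolumab 1 and 8 without nivolumab 3.

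**Figure D2:**
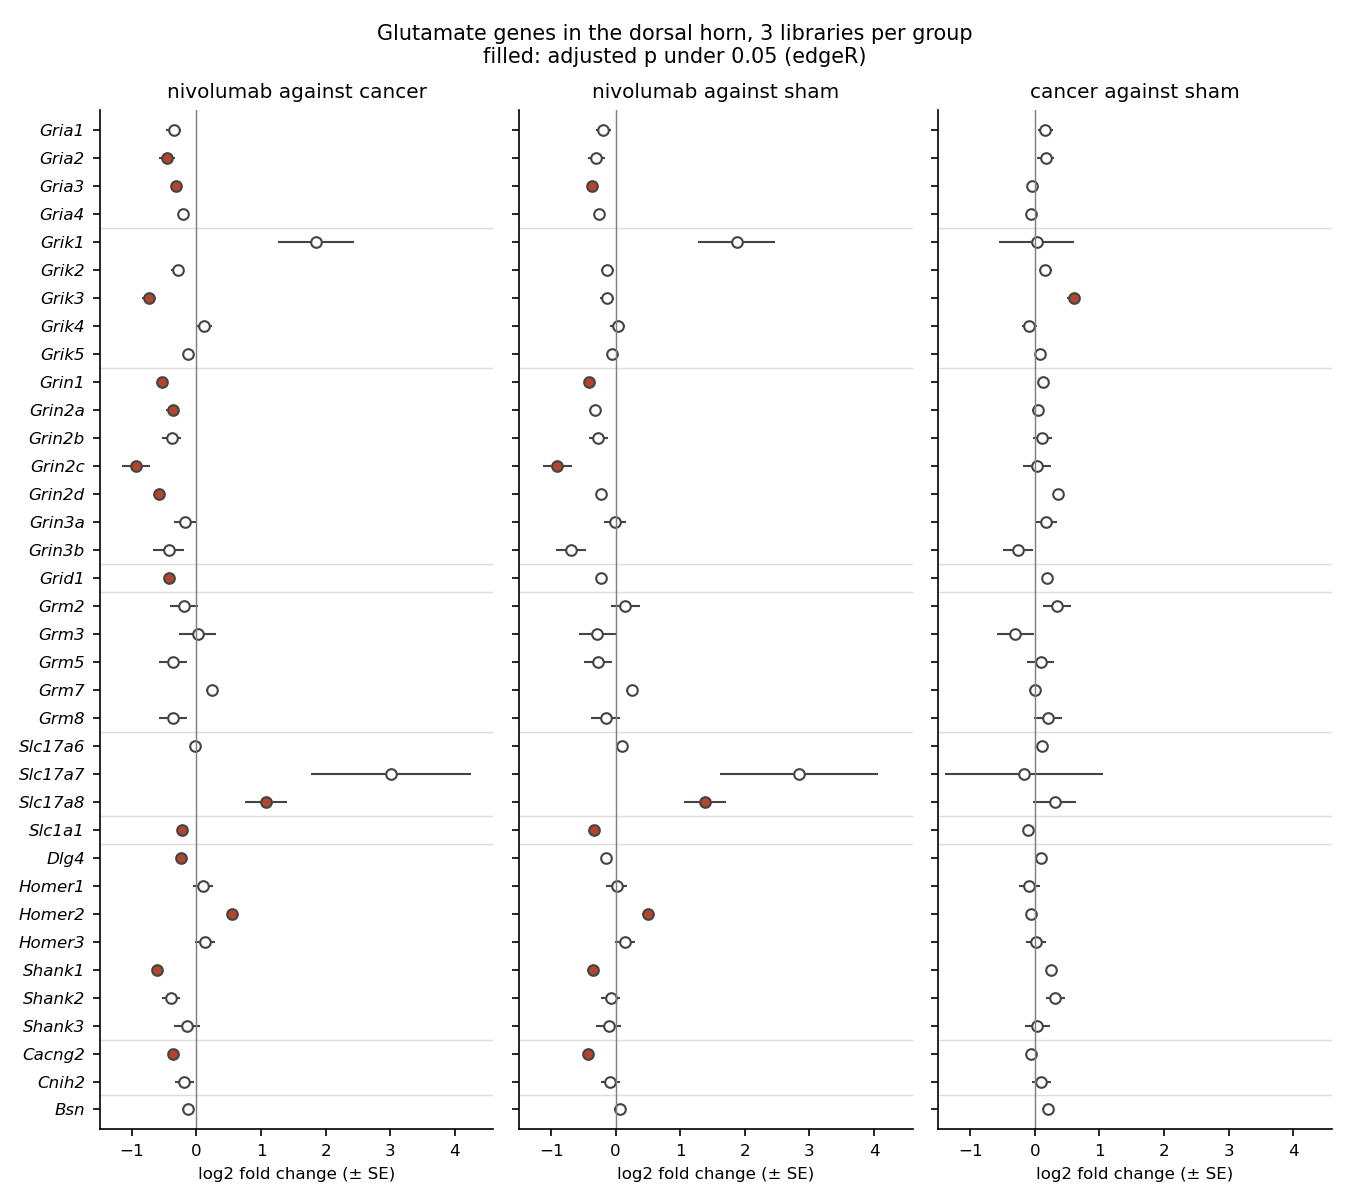
Log2 fold change with its standard error for each member in the dorsal horn, in nivolumab against cancer (left), nivolumab against sham (middle) and cancer against sham (right), 3 libraries per group. Filled points passed the adjusted p threshold of 0.05 in edgeR, 14 at left, 8 in the middle and 1 at right.

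Among NMDA genes, Grin1 had 318, 346 and 316 CPM in nivolumab libraries, 450, 472 and 491 in cancer libraries and 389, 439 and 470 in sham libraries. Its highest nivolumab library was below its lowest sham library, and the log2 fold change against cancer was −0.53 (SE 0.07, adjusted p = 0.00297). Grin2d (GluN2D), a subunit that gives slow-closing receptors, had 38.2, 38.4 and 35.7 CPM in nivolumab, 57.6, 56.7 and 53.0 in cancer and 43.0, 46.0 and 42.0 in sham libraries. The 3 groups did not overlap, with cancer highest and nivolumab lowest, and the change against cancer was −0.58 (SE 0.07, adjusted p = 0.00169). Grin2a (GluN2A), typical of mature synapses, fell to 44.9 ± 4.77 CPM in nivolumab, against 58.0 ± 5.21 in cancer (−0.37, SE 0.095, adjusted p = 0.0284).

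Grin2c (GluN2C), whose RNA is also made by astrocytes, had 21.4, 21.7 and 21.8 CPM in nivolumab libraries, against 25.9, 46.0 and 52.0 in cancer libraries. The nivolumab libraries were nearly equal and cancer 1 was near them, and the log2 fold change was −0.93 (SE 0.22, adjusted p = 0.0245). It was lost without cancer 2, cancer 3 or any 1 nivolumab library, and Grin2a without cancer 1, cancer 2, nivolumab 1 or nivolumab 3. Grin2b (GluN2B), a subunit studied as a target in pain, missed the threshold at −0.38 (SE 0.15, adjusted p = 0.104) and passed with the replicate number as a block (adjusted p = 0.0246). Grin3a and Grin3b, which make receptors less permeable to calcium, did not pass (−0.18 and −0.43). Grin1's share of the NMDA sum was nearly the same in all groups, 60.6% to 62.0% in nivolumab libraries, 60.5% to 61.9% in cancer libraries and 58.1% to 64.2% in sham libraries. The size of this share depended on the length used. With the longest transcript it was 73.5% to 74.9%, 73.5% to 75.6% and 72.2% to 77.3% in the same order.

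Both AMPA calls were falls. Gria3 (GluA3) had 111, 116 and 113 CPM in nivolumab libraries, against 142, 149 and 135 in cancer libraries, a log2 fold change of −0.32 (SE 0.06, adjusted p = 0.00596). Gria2 (GluA2), the subunit that keeps calcium out of AMPA receptors, had 190, 201 and 143 CPM in nivolumab and 268, 239 and 227 in cancer libraries (−0.46, SE 0.125, adjusted p = 0.036). Nivolumab 3 was the lowest for Gria2, and its call was lost without cancer 1, 2 or 3, nivolumab 1, nivolumab 3 or sham 2. Gria1 (GluA1), often moved into synapses during sensitisation, came to −0.35 (SE 0.115, adjusted p = 0.063) and passed with the replicate block (adjusted p = 0.0238). Gria4, the most abundant AMPA subunit per length, had −0.20 (SE 0.08, adjusted p = 0.0976). Cacng2 (stargazin), which brings AMPA receptors to the membrane, fell to 107, 116 and 116 CPM in nivolumab libraries, against 143, 152 and 141 in cancer libraries (−0.36, SE 0.07, adjusted p = 0.0082). Its fellow auxiliary subunit Cnih2 did not pass (−0.19, adjusted p = 0.395).

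**Figure D3:**
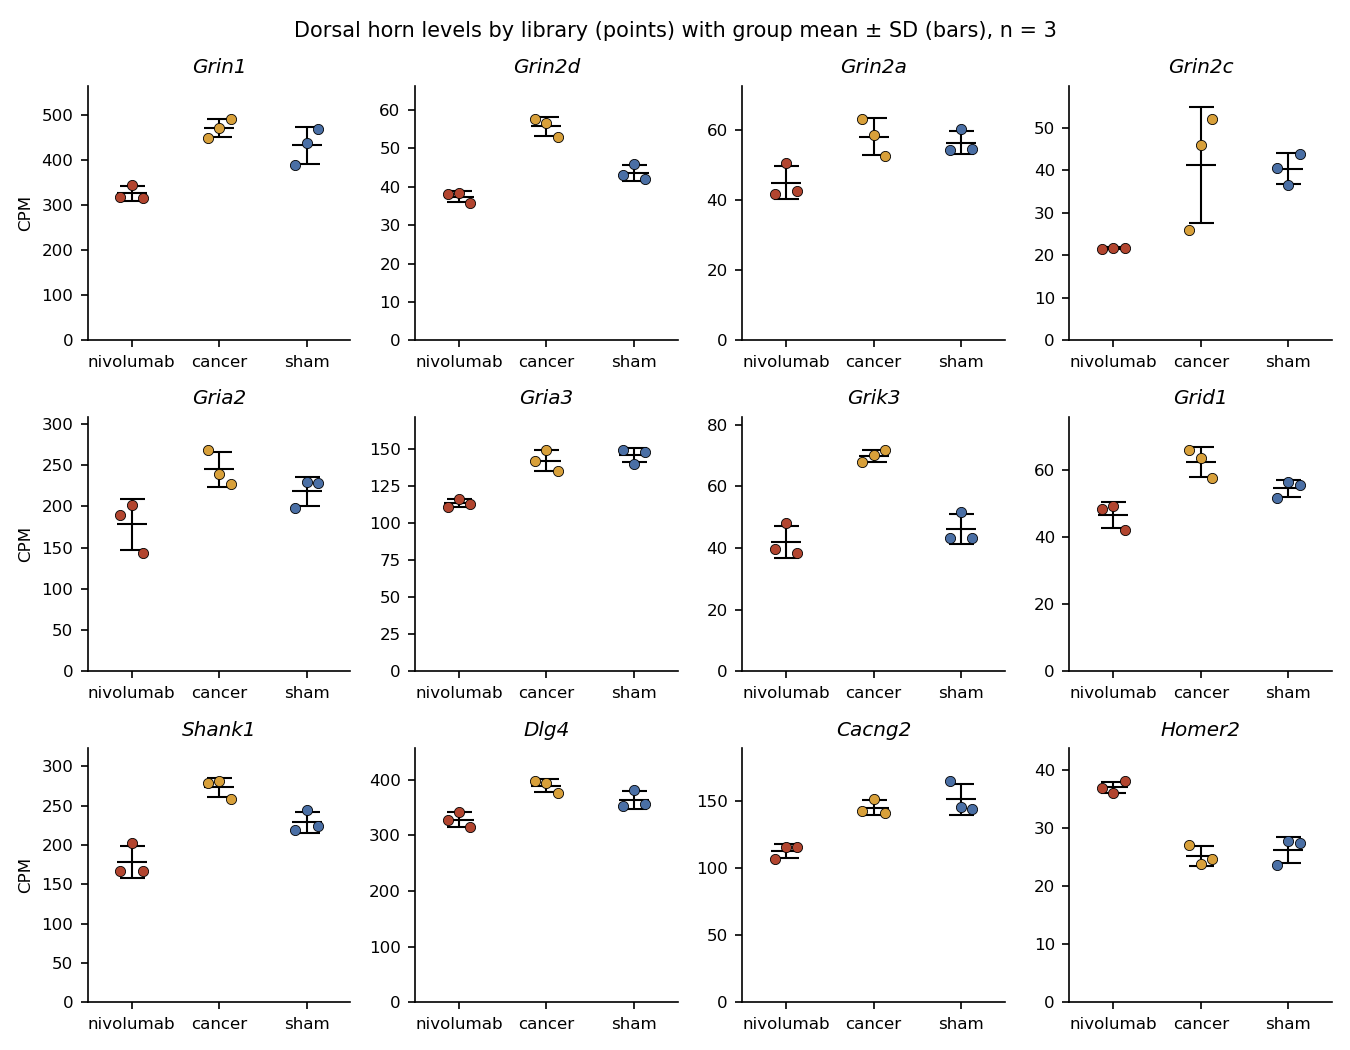
CPM in each dorsal horn library (points) with the group mean and SD (bars, n = 3) for 12 of the members that passed in nivolumab against cancer, with axes from 0. Nivolumab points lie below cancer points for all genes shown except Homer2, whose 3 nivolumab libraries (36.0 to 38.0 CPM) lie above the others.

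Of the 5 kainate subunits, 1 passed, and it fell. Grik3 (GluK3) had 39.6, 48.0 and 38.3 CPM in nivolumab libraries, 67.8, 70.1 and 71.7 in cancer libraries and 43.2, 51.7 and 43.3 in sham libraries. The cancer libraries were above all others, while nivolumab and sham overlapped, and the change against cancer was −0.73 (SE 0.10, adjusted p = 0.00288). Grik1 (GluK1), known as a kainate subunit of dorsal root ganglion neurons, had 122, 65.8 and 123 CPM in nivolumab libraries, against 18.1, 24.8 and 43.9 in cancer and 16.5, 15.8 and 52.5 in sham libraries. All nivolumab libraries were higher, and in the other groups replicate 3 was highest, as it was for the ganglion genes. The difference of 1.85 (SE 0.59) missed the threshold (adjusted p = 0.0761) and passed with the replicate block (adjusted p = 0.0279) and without sham 3 and cancer 3 (adjusted p = 0.0105). With the ganglion marker level as a covariate it was 0.67 (adjusted p = 0.253).

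Grik2, a common subunit of brain kainate receptors, had −0.29 (adjusted p = 0.0783, and 0.0473 with the replicate block). The partner subunits Grik4 (0.12) and Grik5 (−0.14) did not pass. The delta receptor Grid1, a synapse organiser, fell to 46.6 ± 3.98 CPM in nivolumab, against 62.5 ± 4.34 in cancer (−0.42, SE 0.08, adjusted p = 0.0102), with no overlap between the groups.

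None of the metabotropic receptors passed in nivolumab against cancer, where 1 of 5 was below an unadjusted p of 0.05, as were 34.2% of all genes. That gene was Grm7, a presynaptic receptor that restrains release, with 55.3, 48.2 and 45.8 CPM in nivolumab libraries and 43.2, 43.5 and 39.2 in cancer libraries (0.25, SE 0.095, adjusted p = 0.102). Nivolumab was higher without overlap. Grm5, the postsynaptic receptor that Homer proteins bind, had 65.8, 69.0 and 45.2 CPM in nivolumab libraries, against 95.9, 74.4 and 61.5 in cancer libraries. These overlapped (−0.37, SE 0.21, adjusted p = 0.261). Grm3, a receptor shared by neurons and astrocytes, was close to equal (0.02, adjusted p = 0.972) and came to 0.78 with the ganglion covariate (adjusted p = 0.00581). Grm2 (−0.20) and Grm8 (−0.36) were low and did not pass.

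The vesicular transporters, which load glutamate into vesicles, showed no fall past the threshold. Slc17a6 had 205, 182 and 205 CPM in nivolumab libraries, against 192, 219 and 188 in cancer libraries, which overlapped (−0.02, SE 0.08, adjusted p = 0.888). Slc17a7 encodes VGLUT1, whose protein marks the endings of large sensory fibres in the cord, and only its RNA was measured here. Slc17a7 had 41.9, 39.7 and 40.0 CPM in nivolumab libraries, 0.384, 4.61 and 10.2 in cancer libraries and 0.452, 2.76 and 13.6 in sham libraries. The nivolumab libraries were nearly equal while cancer and sham libraries spread widely, and the change against cancer of 3.02 (SE 1.24) did not pass (adjusted p = 0.141). Slc17a8 (VGLUT3), found in touch-sensing fibres and in some spinal neurons, rose to 6.71, 3.19 and 6.03 CPM in nivolumab libraries, against 2.34, 2.44 and 2.78 in cancer libraries (1.07, SE 0.32, adjusted p = 0.0476).

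Slc17a8, Slc17a7 and Grik1 were highest in the libraries with the most ganglion RNA. The whole list of 14 ganglion neuron markers was higher in nivolumab than in cancer without overlap (14 of 14), and 3 passed (Calca, Pou4f1 and Ret). Scn10a, a sodium channel of pain-sensing neurons, had 307, 205 and 400 CPM in nivolumab libraries, 0.105, 0.114 and 103 in cancer libraries and 0, 0.0789 and 89.4 in sham libraries. With the 6 ganglion-specific genes as a covariate, Slc17a8 came to 0.67 (adjusted p = 0.275) and Slc17a7 to 1.20 (adjusted p = 0.507). Treatment and the amount of ganglion RNA differed together between these groups, so their parts in Slc17a8, Slc17a7 and Grik1 cannot be told apart. The same holds for every other member, such as Slc17a6 or Grm3. Covariate values rest mostly on sham 3 and cancer 3, whose ganglion-specific genes averaged 4.72 and 5.09 log2 CPM. Every nivolumab library lay above them, so these values reach beyond the range of the other groups. Slc17a8 was also lost without sham 2, cancer 1, cancer 2, cancer 3, nivolumab 1 or nivolumab 3. Slc1a1 (EAAC1), the neuronal uptake transporter, fell to 88.8, 91.4 and 82.1 CPM in nivolumab libraries, against 105, 104 and 98.7 in cancer libraries (−0.23, SE 0.06, adjusted p = 0.0279). Its call was lost with the covariate (adjusted p = 0.0681) and without cancer 1, cancer 2, nivolumab 1 or nivolumab 3.

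**Figure D4:**
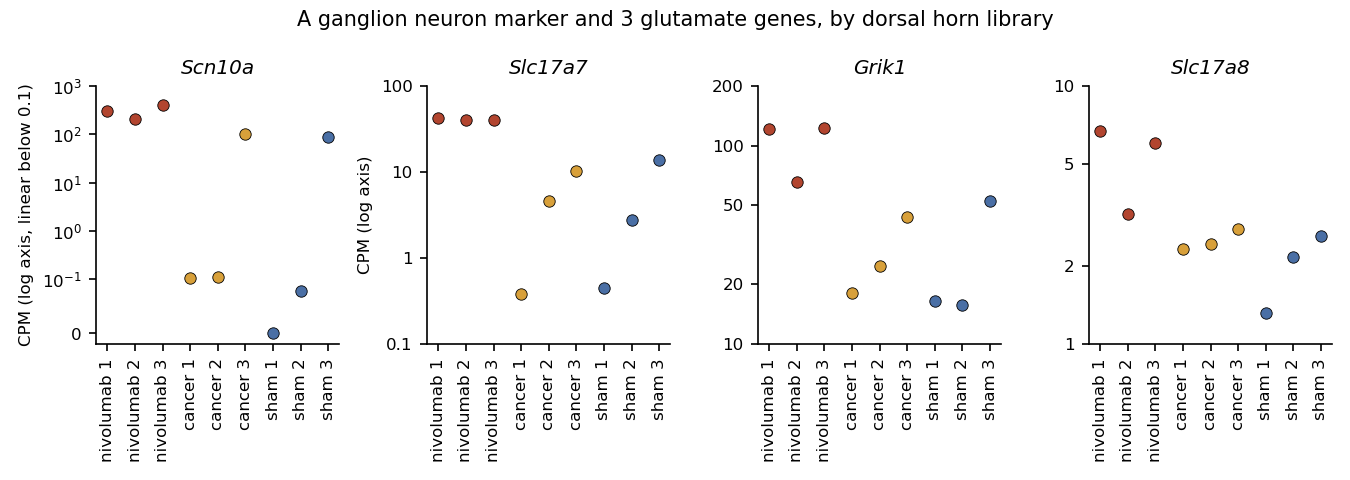
CPM of the ganglion neuron marker Scn10a and of Slc17a7, Grik1 and Slc17a8 in each dorsal horn library, on log axes (linear below 0.1 for Scn10a). The nivolumab libraries are highest in every panel, and within cancer and sham replicate 3 is the highest.

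Among postsynaptic scaffolds, Shank1, a large protein that joins Dlg4-bound and Homer-bound receptors, had 167, 202 and 167 CPM in nivolumab libraries, 279, 281 and 259 in cancer libraries and 219, 244 and 224 in sham libraries. The 3 groups did not overlap (nivolumab against cancer −0.61, SE 0.08, adjusted p = 0.00274). Dlg4, the anchor of NMDA receptors, had 327, 342 and 315 CPM in nivolumab libraries, against 397, 394 and 376 in cancer libraries (−0.25, SE 0.05, adjusted p = 0.0154), a call that was lost without cancer 2, nivolumab 1 or nivolumab 3. Homer2 rose to 36.8, 36.0 and 38.0 CPM in nivolumab libraries, against 27.0, 23.7 and 24.6 in cancer libraries (0.55, SE 0.08, adjusted p = 0.00375). Homer2 thus had the opposite sign to the scaffolds that fell, and its relatives Homer1 (0.10) and Homer3 (0.14) did not pass. Shank2 had −0.39 (adjusted p = 0.0873, and 0.0159 with the replicate block) and Shank3 −0.15 (adjusted p = 0.636). The presynaptic scaffold Bsn, which organises vesicle release sites, had −0.13 (adjusted p = 0.306).

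Of 66 other genes of the glutamate synapse that were tested, 23 fell and 2 rose in nivolumab against cancer (median −0.18). Those that fell included Nsf, which recycles the release machinery and binds AMPA receptors (−0.42, adjusted p = 0.00149), and the kinase subunit Camk2b (−0.48, adjusted p = 0.00216). Some cell type lists also differed. Of 11 markers of dorsal horn inhibitory neurons, 5 fell and 0 rose (median −0.55), with summed levels of 751 to 846 CPM in nivolumab, 1090 to 1240 in cancer and 959 to 1050 in sham libraries. Of 10 excitatory markers 1 fell and 0 rose, of 18 pan-neuronal markers 4 fell and 6 rose, of 12 astrocyte markers 6 fell and 1 rose, and of 12 Schwann cell markers 4 rose and 0 fell. Of 14 oligodendrocyte markers 4 rose and 0 fell, 13 of them higher without overlap (median 0.60), with summed levels of 46700 to 52000 CPM in nivolumab, 26800 to 38300 in cancer and 49500 to 61000 in sham libraries. Skeletal muscle markers were positive in 9 of 9 (median 2.17), with 0 passing. Ganglion RNA entered as a covariate and pan-neuronal markers as a scaling, and the part of the other lists in the receptor results was not tested. With the ganglion covariate 8 members fell and 2 rose. Gria2, Slc1a1, Dlg4, Grin2a and Slc17a8 no longer passed with it, and Grm3 did.

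Nivolumab was next set against sham. Of 36 members, 6 fell and 2 rose, while 8.51% of all genes passed (4.67% higher and 3.84% lower). Groups did not overlap for 5 higher and 12 lower members, against 17.1% and 18.1% of all genes, and 17 members were below an unadjusted p of 0.05, against 26.1%. Of the members, 25 of 36 log2 fold changes were negative (median −0.14, against 50.5% negative genes). The median was −0.06 with 19 of 36 negative with the ganglion covariate, −0.06 without sham 2, −0.08 without nivolumab 3 and −0.22 with scaling to neuronal markers. That scaling, which ganglion RNA may also enter, put the median of all genes at −0.09. Of the cell type lists, astrocyte markers fell in 5 of 12, inhibitory neuron markers in 3 of 11 and red blood cell markers in 5 of 5, and ganglion neuron markers were higher without overlap in 14 of 14. Apart from the ganglion covariate, their part in the members' differences was not tested. Both comparisons share the nivolumab libraries, so that they are not independent. Gria3 (−0.36, SE 0.06, adjusted p = 0.00834), with 149, 140 and 148 CPM in sham libraries, and Cacng2 (−0.42, SE 0.07, adjusted p = 0.00984), with 165, 146 and 144 CPM in sham libraries, fell. Slc1a1 fell to 87.4 ± 4.80 CPM in nivolumab, against 111 ± 3.22 in sham (−0.34, SE 0.06, adjusted p = 0.0124). Grin1 (−0.41, adjusted p = 0.0134), Shank1 (−0.36, adjusted p = 0.0278) and Grin2c (−0.90, adjusted p = 0.0422) also fell, and Homer2 (0.49, adjusted p = 0.0114) and Slc17a8 (1.38, adjusted p = 0.0322) rose.

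Grin2d (−0.22, adjusted p = 0.0685), Grid1 (−0.23, adjusted p = 0.119), Dlg4 (−0.15, adjusted p = 0.114) and Grik3 (−0.13, adjusted p = 0.447) did not pass against sham. Grik1 had 1.87 (SE 0.59, adjusted p = 0.103) and Grm7 0.25 (adjusted p = 0.131). Of the levels highest per length, Gria4 had −0.26 (adjusted p = 0.0676), Slc17a6 0.10 (adjusted p = 0.472), Grik5 −0.06 and Grm3 −0.29. The 8 calls became 0 without nivolumab 1, 3 without nivolumab 3, 4 without sham 1 and 5 without sham 2. Among the other synaptic genes 9 fell and 1 rose, and those that fell included Glul, the glutamine synthetase, which is also in the astrocyte list (−0.69, adjusted p = 0.00572), Nsf (−0.28, adjusted p = 0.0105) and Camk2b (−0.34, adjusted p = 0.0132).

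Cancer was then set against sham, both given IgG. Grik3 rose, with 67.8, 70.1 and 71.7 CPM in cancer libraries, against 43.2, 51.7 and 43.3 in sham libraries (0.60, SE 0.10, adjusted p = 0.04997), and it was the only member of 36 to pass, where 0.323% of all genes passed (0.0955% higher and 0.228% lower). It passed in 8 of 19 alternatives, between 0.56 and 0.69, and was lost without sham 1, 2 or 3, cancer 2 or 3, or any 1 nivolumab library. Grin2d had 55.8 ± 2.41 CPM in cancer and 43.7 ± 2.10 in sham (0.35, SE 0.07, adjusted p = 0.0595). Without overlap, cancer was also higher for Shank1 (0.25, adjusted p = 0.231), Grid1 (0.19, adjusted p = 0.358) and Grm2 (0.35, adjusted p = 0.543) and lower for Slc1a1 (−0.11, adjusted p = 0.472), making 5 higher and 1 lower, against 8.46% and 8.34% of all genes. The median over members was 0.09, and 10 of 36 were negative, against 48.6% of all genes. That median was 0.06 without sham 1, 0.16 without cancer 3 and 0.18 without sham 3 and cancer 3 together. Red blood cell markers fell in 4 of 5 (median −2.73), and oligodendrocyte markers in 3 of 14, with all 14 negative (median −0.66). Summed oligodendrocyte levels were 26800 to 38300 CPM in cancer and 49500 to 61000 in sham libraries, and the part of these lists in the members' differences was not tested. Grin1 (0.12), Gria1 (0.16), Gria4 (−0.06), Grik5 (0.07), Grm3 (−0.30), Slc17a6 (0.11) and Dlg4 (0.10) did not pass. The cancer libraries used here are those set against nivolumab, so the opposite signs of Grik3 and Grin2d in both comparisons are not independent. No other gene of the synapse passed in edgeR, with 10 of 66 below an unadjusted p of 0.05, against 13.1% of all genes.

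In the colon, whose counts were scaled separately, 27 of 36 members could be tested. The colon's highest level per length was that of Slc1a1, a transporter also used by epithelium for acidic amino acids, at 7.18 RPKM, followed by Grik5 (3.62), Homer2 (2.88) and Shank2 (2.30). In all, 9 members were too low to test: Grin2a, Grin2b, Grin2c, Grm2, Grm3, Grm5, Grm8, Slc17a7 and Cacng2, none with over 8 counts in any library. Cancer 2 was the highest library for 17 of the 27 members tested and sham 3 the lowest for 15. Grik3 showed this, with 10.8, 7.12 and 6.54 CPM in nivolumab libraries, 8.89, 40.9 and 9.39 in cancer libraries and 6.93, 10.8 and 0.868 in sham libraries. The 10 enteric neuron markers averaged 5.63 log2 CPM in cancer 2 and 0.79 in sham 3. The remaining libraries lay between 3.16 and 4.40, and their part in the members' spread was not tested.

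In the colon 0 of 27 members passed in edgeR in any comparison, as did 0% of all 13445 genes. Below an unadjusted p of 0.05 there was 1 member in cancer against sham, 2 in nivolumab against cancer and 1 in nivolumab against sham. Of all genes, 10.9%, 9.84% and 6.45% were. DESeq2 called 1, 1 and 0 members, and its share of all genes is not reported here. Negative log2 fold changes numbered 8 of 27 in cancer against sham, 22 in nivolumab against cancer and 16 in nivolumab against sham, where 49.7%, 46.9% and 45.9% of all genes were negative. With scaling to neuronal markers, which put the median of all genes at −1.32, 0.46 and −0.84, these became 18, 13 and 20 of 27. The members' median was then −0.39, and 0.67 with the usual scaling, in cancer against sham, and 0.05 and −0.68 in nivolumab against cancer. With 1 library left out, the median in cancer against sham ranged between 0.13 (without cancer 2) and 1.21 (without sham 2). In nivolumab against cancer it ranged between −1.08 (without cancer 1) and −0.20 (without cancer 2), and in nivolumab against sham leaving out sham 2 gave 10 of 27 negative (median 0.33). Groups did not overlap for 0 higher and 2 lower members in cancer against sham (6.96% and 12.3% of all genes), 1 and 3 in nivolumab against cancer (7.99% and 7.16%), and 0 and 2 in nivolumab against sham (8.81% and 6.11%). Bsn had 22.7, 29.1 and 29.8 CPM in nivolumab libraries, 15.3, 17.8 and 12.0 in cancer libraries and 33.5, 33.4 and 28.9 in sham libraries. All cancer libraries were below the others (cancer against sham −1.09, SE 0.20, adjusted p = 0.147, and nivolumab against cancer 0.86, SE 0.20, adjusted p = 0.342, in edgeR), and DESeq2 called both (adjusted p = 0.000105 and 0.0125). Shank2 had 20.7 ± 1.35 CPM in nivolumab, 22.1 ± 6.49 in cancer and 31.3 ± 1.98 in sham (nivolumab against sham −0.60, adjusted p = 0.715). Shank3 (−0.94, adjusted p = 0.496) and Shank1 (−1.46, adjusted p = 0.517) did not pass in nivolumab against cancer, nor did Grin3a (−1.84, adjusted p = 0.49) or Grik3 (1.67, adjusted p = 0.519) in cancer against sham.

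**Figure D5:**
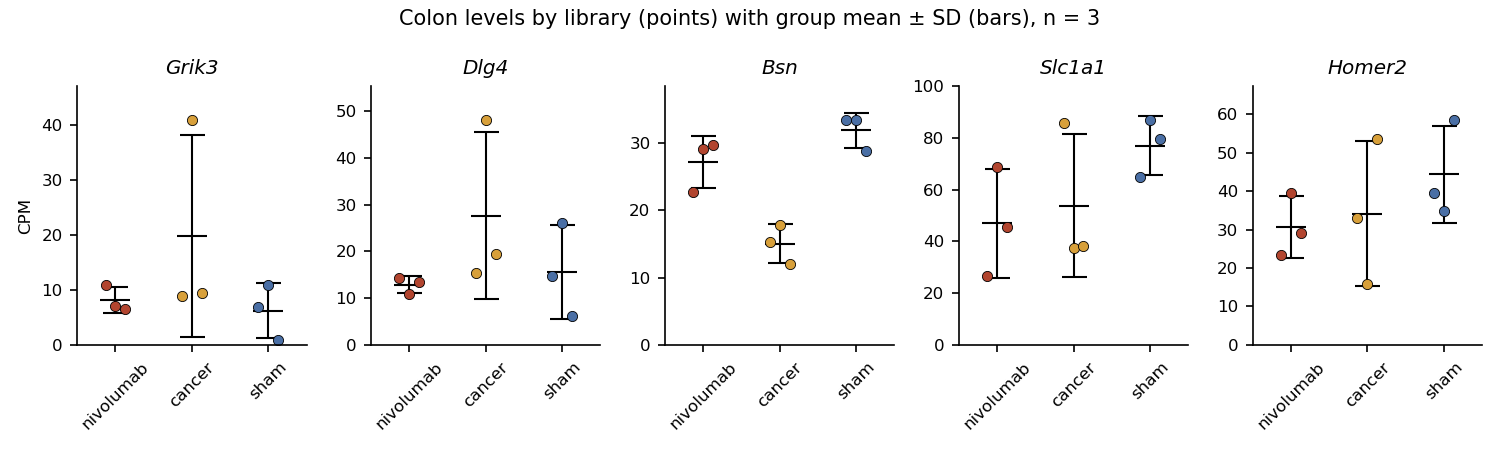
CPM in each colon library (points) with the group mean and SD (bars, n = 3) for Grik3, Dlg4, Bsn, Slc1a1 and Homer2, with axes from 0. Cancer 2 stands apart for Grik3 (40.9 CPM) and Dlg4 (48.2 CPM), while the 3 cancer libraries are the lowest for Bsn.

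Whether the response to nivolumab differed between the tissues was asked with an interaction term over 18 libraries and 14164 genes. For nivolumab against cancer 0 of 36 members passed in edgeR, while 0.127% of all genes did, with 3 members below an unadjusted p of 0.05 and 2 called by DESeq2. After Bsn (−0.92, adjusted p = 0.071), Grin2d had the lowest p. In the colon it had 4.57 ± 0.75 CPM in nivolumab and 3.32 ± 0.71 in cancer, and the dorsal horn change minus the colon change was −0.97, which did not pass (SE 0.25, adjusted p = 0.091). For nivolumab against sham 0 of 36 passed, with 2 below an unadjusted p of 0.05, while 0.184% of all genes passed. The 36 members included those too low to test in the colon, for which the term rested on few or no colon counts. Grin2a, with SE 549 in nivolumab against cancer, was 1 of them. A missed threshold does not show that the tissues respond alike.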

How the data were processed

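RNA of mouse dorsal horn and colon was sequenced, with 18 libraries in 6 groups of 3. The submitters' processing notes list FastQC 0.11.5, Trimmomatic, HISAT2 and StringTie, with GRCm38 as the genome. Neither a counting tool nor a strand setting is stated, so overlapping and antisense genes may share reads. The authors deposited 1 table of raw gene counts per tissue, with no scaling. From these, edgeR 4.0.16 in R 4.3.3 (TMM scaling, default filter, robust quasi-likelihood fit of all 9 libraries of a tissue, two-sided tests) left 13609 genes in the dorsal horn and 13445 in the colon. CPM are TMM-scaled, and RPKM use the union of exons in the GENCODE annotation of GRCm38. The longest transcript was the alternative length for class sums and shares. A floor of 3 counts was 0.103 to 0.132 CPM in the dorsal horn and 0.095 to 0.149 in the colon, for counting error only. Replicates all differed by more than counting noise (lowest chi-square per degree of freedom 9.62). On simulated data for nivolumab against cancer, the fit recovered 43.3%, 68.7% and 84.8% of dorsal horn genes changed 1.5-fold, 2-fold and 3-fold (13516 genes), and 1.52%, 6.06% and 45.5% in the colon (13331 genes). Only 66 or 67 genes were changed at each size, whereas 17.2% of real dorsal horn genes passed. Recovery in the real data may therefore differ, and changes below 1.5-fold were not simulated.

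Members, lists, tests and the rule for named genes were chosen with earlier results of these data known. The rule named every member past the threshold, the most abundant and the lowest-p member of each class, up to 4 lowest-p members in the colon and up to 4 other synaptic genes per comparison, some of which are not reported here. Same-numbered libraries deviated together in dorsal horn nivolumab against cancer (correlations 0.192, 0.276 and 0.19), from the data and not the labels, so blocked values are given there where they change a call. Alternatives covered scaling (also to neuronal markers), DESeq2 1.42.0, filters, the block, 2-group fits, a ganglion covariate and each library left out.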

Additional observations from a re-analysis of the deposited data

Results flagged for a closer look

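Bsn, the presynaptic scaffold, differed between the tissues in cancer against sham, a contrast added after the data were seen. Its log2 fold change was 1.24 higher in the dorsal horn than in the colon (SE 0.20, adjusted p = 0.0318, interaction term in edgeR), where 0.155% of 14164 genes passed and 1 of 36 members did. In the dorsal horn it had 182, 166 and 148 CPM in cancer libraries, against 132, 158 and 143 in sham libraries (0.20), and in the colon 15.3, 17.8 and 12.0 CPM in cancer libraries, against 33.5, 33.4 and 28.9 in sham libraries (−1.09). The groups overlapped in the dorsal horn and did not in the colon. The difference passed in 10 of 16 alternatives, between 1.10 and 1.44. It was lost without dorsal horn cancer 2, cancer 3, sham 1, sham 2 or sham 3, or without colon sham 1, with adjusted p-values up to 0.105.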

How the results depend on the processing

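In the dorsal horn cancer against sham, the 1 member called became 0 with scaling to neuronal markers, with only the 2 groups compared and without sham 3 and cancer 3 together. It became 2 with DESeq2, with the ganglion covariate and with the replicate block (Grik3 and Grin2d), and ranged from 0 to 1 when each library was left out. Leaving out each library gave 8 to 15 members in nivolumab against cancer and 0 to 8 in nivolumab against sham, where the cause was not tested. Grm3 in nivolumab against sham reversed to 0.54 with the ganglion covariate (adjusted p = 0.0472), and it was −0.52 without sham 3 and cancer 3. Scaling to neuronal markers, which ganglion RNA may also enter, shifted the median of all dorsal horn genes by −0.12 in nivolumab against cancer. It called 16 members, 1 higher and 15 lower. In the colon, DESeq2 called 1 member in each of cancer against sham and nivolumab against cancer, and every replicate left out gave 0. For the tissue interaction, DESeq2 called 2 and leaving out a library gave 0 to 1. Shares of all genes called in the alternative fits are not reported here. Member counts from these fits therefore cannot be set against a change in calls over all genes. Same-numbered libraries did not deviate together in every pair in the other comparisons; there the replicate block called 2 in cancer against sham and 11 in nivolumab against sham. Of the single-member values, 3141 kept direction and side of the threshold, 42 gained a call, 83 lost 1, 167 changed sign with no call in either fit, and 1 reversed with a call. These counts pool both tissues and mostly cover members called in neither fit, so they do not show how steady the calls were. Of the dorsal horn calls, 8 of 14 in nivolumab against cancer passed in all 19 alternatives. None of the 8 in nivolumab against sham did, nor did the 1 in cancer against sham.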
